A study of Mus musculus with 6 samples.

Results

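The 9 genes described here encode the core of Hedgehog signaling and of its partner pathway, parathyroid hormone-related protein (PTHrP). They are *Ihh* and *Pthlh*, which encode the ligands Indian hedgehog and PTHrP, *Ptch1*, *Smo* and *Hhip*, which encode proteins of ligand reception, *Gli1*, *Gli2* and *Gli3*, which encode the transcription factors, and *Pth1r*, which encodes the receptor of PTHrP and of parathyroid hormone. They were chosen by symbol, and all 9 were found among the 56748 genes of the count table. Bulk RNA sequencing had been carried out on 6 cultures of cells isolated as primary osteocytes, the cells buried in bone matrix, from limb long bones after the marrow had been flushed out. Of these cultures, 3 were WT and 3 were labelled cKO. By the study's methods the WT mice of the stimulated cultures were C57BL/6J, osteocytes were isolated at an age of 7 weeks, and mice were matched for age and sex. The cKO genotype is *Gsdmd* fl/fl; DMP1-Cre, in which Cre driven by the *Dmp1* promoter removes floxed exons of the gasdermin D gene in cells where that promoter is active. Every culture was grown for 7 days and then was stimulated with lipopolysaccharide (LPS, 10 ng/mL) for 3 h, after which 20 µg/mL of aluminum hydroxide was given for 3 h. All differences are therefore between stimulated cultures, and no unstimulated culture was analysed here. Nothing in the labels says whether the 3 cultures of a genotype came from separate mice, and p-values measure the spread between these cultures only.

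Hedgehog ligands bind PTCH1, which otherwise holds SMO inactive, and active SMO at the primary cilium turns GLI2 and GLI3 from repressors toward activators. *Gli1*, *Ptch1* and *Hhip* are transcribed in response to the pathway, and PTCH1 and HHIP then restrain it. In the growth plate, Indian hedgehog from prehypertrophic chondrocytes maintains PTHrP, which acts on PTH1R to delay chondrocyte hypertrophy. In osteoblasts and osteocytes PTH1R is also the receptor for parathyroid hormone, and signals mainly through the stimulatory G protein encoded by *Gnas* and cyclic AMP.

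Library totals lay between 39566835 and 49734046 counts. *Gsdmd*, the targeted gene, was counted 609, 699 and 549 times in WT and 885, 937 and 1045 times in the libraries labelled cKO, which goes against that label, so genotypes are given as labelled and every direction rests on the labels. The count pools all exons, so it does not separate the floxed exons. *Xist* had at most 4 counts in a WT library and at least 44817 in a library labelled cKO. In contrast, 4 Y-linked genes summed to at least 7696 counts in WT and to 0 in the other genotype. These counts go against the matching for sex that the methods state, and sex and genotype cannot be told apart. Of the osteocyte markers, *Sost* had 0 counts in every library, *Dmp1* 0 to 6 and *Mepe* 0 to 2, and *Pdpn* alone of 6 was abundant enough to be tested. The osteoblast marker *Bglap* had 0 to 5 counts. The defining osteocyte transcripts were thus absent or nearly so, whereas *Col2a1*, the cartilage collagen gene, was counted 31359 to 67681 times per library and fell. All 14 macrophage markers rose in the libraries labelled cKO, and their summed level was 6937 to 7279 CPM there against 1215 to 1361 CPM in WT, where CPM are counts per 1000000 counts after scaling. Mean levels of *Csf1r* (macrophages) were 26.1 CPM in WT and 234.9 in the libraries labelled cKO, of *Acp5* (osteoclasts) 5.70 and 13.5, of *Postn* (periosteum) 230.6 and 26.4, of *Cxcl12* (marrow stroma) 334 and 1053, and of *Pecam1* (endothelium) 1.42 and 0.687. The chondrocyte list held 12 tested genes that rose and 3 that fell of 17, with sums of 2415 to 2622 CPM in WT and 3399 to 3603 CPM in the other genotype. The counts of tested genes that rose and fell were 2 and 4 of 6 for osteoblasts, 1 and 2 of 5 for osteoclasts, 2 and 6 of 9 for fibroblasts and periosteum, 1 and 1 of 3 for marrow stroma, and 1 and 3 of 4 for endothelium. Summed osteoclast markers went opposite to *Acp5*, from 119 to 132 CPM in WT to 82.6 to 94.7 CPM in the libraries labelled cKO. Summed endothelial markers went opposite to *Pecam1*, at 5.67 to 6.13 CPM in WT and 6.21 to 6.71 CPM in the libraries labelled cKO. In these bulk libraries fewer cells of a type and less RNA per cell cannot be told apart, and the part of these markers in the results that follow was not tested.

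*Smo*, *Ptch1* and *Gli2* fell and *Pth1r* rose in the libraries labelled cKO. The changes of *Smo* and *Ptch1* were small, 1.17-fold and 1.15-fold, that of *Gli2* was 1.95-fold and that of *Pth1r* 1.77-fold, all under 2-fold. *Gli3* differed by less than the spread between libraries, and *Gli1* and *Hhip* were sparse and did not pass. Their intervals of the fold change, 0.345 to 1.93 and 0.410 to 2.29, are too wide to show a modest difference. *Ihh* and *Pthlh* were near the limit of detection and did not reach the count needed for the test. Each gene was compared with edgeR's quasi-likelihood test, fitted over the 17146 genes with enough counts, and a gene passed at a Benjamini-Hochberg adjusted p-value below 0.05. Of the 7 members tested, 1 rose and 3 fell, beside 39.3% of all tested genes passing in either direction, 20.1% higher and 19.2% lower in the libraries labelled cKO.

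Per kilobase of gene length, the only scale on which levels of different genes are compared here, *Smo* was the most abundant member. Its level was 24.3 ± 1.81 CPM per kilobase in WT and 20.8 ± 0.509 in the libraries labelled cKO (SD, n = 3 each), above 89.7% and 87.4% of the tested genes. *Ptch1* followed at 9.04 ± 0.207 and 7.83 ± 0.340, *Gli3* at 5.19 ± 0.106 and 5.41 ± 0.458, *Pth1r* at 2.30 ± 0.302 and 4.06 ± 0.271, and *Gli2* at 0.581 ± 0.112 and 0.297 ± 0.0111 CPM per kilobase (SD, n = 3 each). The order of these 5 was the same in both genotypes, and no library of a gene overlapped a library of the next gene in that order within a genotype. The other 4 members lay below 0.2 CPM per kilobase in every library. Among them neighbours in the order overlapped, except that *Ihh* was at 0 in every WT library, under *Hhip*. *Hhip*, the lowest of them that was tested, was above 0.642% and 0.933% of the tested genes, and *Gli2* was above 22.4% and 13.5%.

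**Figure D1:**
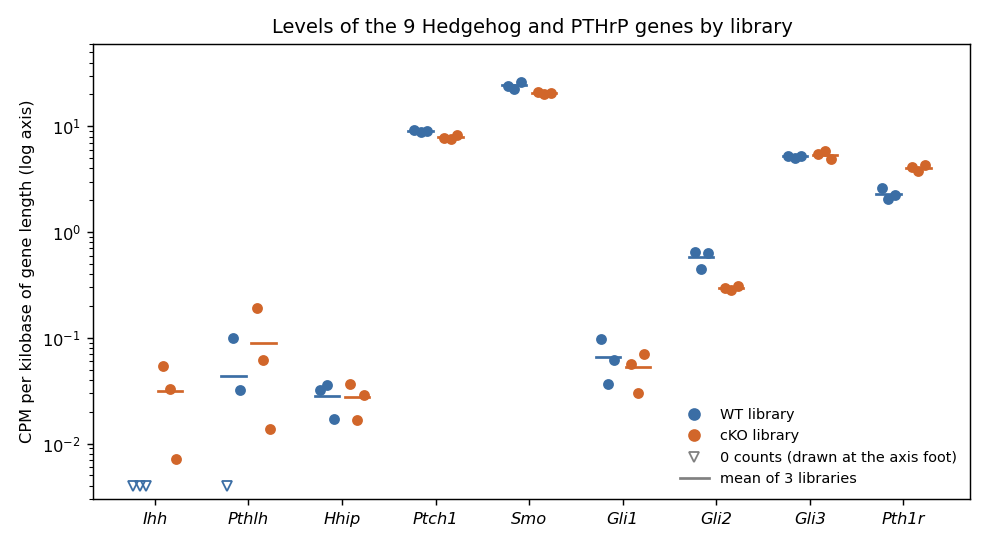
Levels of the 9 members by library, in CPM per kilobase of gene length on a log axis, with WT in blue and the libraries labelled cKO in orange. Points are libraries, bars are means of 3 libraries, and open triangles at the foot are libraries with 0 counts. *Smo*, *Ptch1*, *Gli3* and *Pth1r* lie above 2 CPM per kilobase in every library, *Gli2* between 0.286 and 0.653, and the other 4 genes below 0.2.

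*Ihh*, on the minus strand of chromosome 1 of mm39 from 74984474 to 74990831, had 0 counts in all 3 WT libraries and 7, 4 and 1 counts in those labelled cKO. A count of 0 allows up to 0.0605 to 0.0773 CPM in a WT library, taking 3 counts as the limit, and covers counting error only. *Ihh* was 0.166, 0.101 and 0.0220 CPM in the libraries labelled cKO, so the lowest of them lies within what the WT libraries allow. *Pthlh*, on the minus strand of chromosome 6 from 147153599 to 147165681, had 0, 8 and 2 counts in WT and 13, 4 and 1 in the libraries labelled cKO, and the genotypes overlapped. Neither gene was tested. The other Hedgehog ligands were as sparse. *Shh* had 4, 0 and 0 counts in WT and 0 in every library labelled cKO, and *Dhh* had 6, 3 and 10 counts against 4, 0 and 3. *Pth*, which encodes parathyroid hormone, had 0 counts in all 6 libraries. *Col10a1*, the marker of the hypertrophic chondrocytes that *Ihh* and *Pthlh* regulate in the growth plate, fell from 4.10 ± 0.664 to 2.75 ± 0.592 CPM (SD, n = 3 each), while other chondrocyte markers mostly rose, as counted above.

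*Ptch1*, which encodes the Hedgehog receptor, lies on the minus strand of chromosome 13 from 63656142 to 63721412. It was measured at 131, 125 and 129 CPM in WT and at 109.8, 107 and 116 CPM in the libraries labelled cKO. Every library labelled cKO was below every WT library. The log2 fold change was -0.21 (standard error 0.047, 95% interval -0.30 to -0.11), and the adjusted p-value was 0.00169 by edgeR. *Smo*, which encodes the transducer that PTCH1 inhibits, lies on the plus strand of chromosome 6 from 29735502 to 29761364. Its level was 136, 127 and 147 CPM in WT and 119.7, 114 and 116 CPM in the libraries labelled cKO, again without overlap. Its log2 fold change was -0.23 (standard error 0.053, 95% interval -0.34 to -0.12), and the adjusted p-value was 0.00206 by edgeR. Libraries of the genotypes did not overlap for 49.2% of all tested genes, 23.9% with the libraries labelled cKO lower. The ratio of *Ptch1* to *Smo* per kilobase was 0.382, 0.390 and 0.347 in WT and 0.364, 0.372 and 0.397 in the libraries labelled cKO, so the 2 transcripts fell without a shift between them beyond the spread of the libraries. *Hhip*, on the minus strand of chromosome 8 from 80692480 to 80784635, encodes a membrane protein that binds and sequesters Hedgehog ligands. It had 13, 16 and 6 counts in WT and 14, 6 and 12 in the libraries labelled cKO. The groups overlapped almost fully, and the interval of the fold change, 0.410 to 2.29, is too wide to show whether the levels are alike.

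Among the transcription factors, *Gli2*, the main activator, had the largest log2 fold change in size of the 7 members tested. It lies on the minus strand of chromosome 1 from 118761862 to 118981349 and was counted 202, 154 and 170 times in WT and 86, 78 and 96 times in the libraries labelled cKO. This corresponded to 4.49, 3.10 and 4.38 CPM against 2.04, 1.96 and 2.11 CPM, and the 3 libraries labelled cKO lay closer together than those of WT. The log2 fold change was -0.96 (standard error 0.21, 95% interval -1.41 to -0.52), and edgeR gave an adjusted p-value of 0.00125. *Gli3*, which acts mostly as a repressor, lies on the plus strand of chromosome 13 from 15637820 to 15904611. Its level was 50.5, 48.6 and 50.2 CPM in WT and 52.7, 55.8 and 47.1 CPM in the libraries labelled cKO, where the lowest library was below all of WT and the other 2 above. The log2 fold change was 0.06, with a 95% interval of -0.07 to 0.19 and an adjusted p-value of 0.492 in edgeR's test. The ratio of *Gli3* to *Gli2* per kilobase was therefore 8.06, 11.2 and 8.21 in WT and 18.5, 20.4 and 15.98 in the libraries labelled cKO, and the genotypes did not overlap. *Gli1*, the factor transcribed in response to the pathway, lies on the minus strand of chromosome 10 from 127165751 to 127177843 and had 22, 9 and 12 counts in WT and 12, 6 and 16 in the libraries labelled cKO. The libraries overlapped, and the interval of the fold change was 0.345 to 1.93. Its bounds overlap those of *Arhgap9* on the opposite strand, which had 55 to 75 counts in WT libraries and 411 to 531 in the others. The study's methods name a directional library kit but not the strand setting of the counting, so the few reads given to *Gli1* are uncertain.

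*Pth1r*, on the minus strand of chromosome 9 from 110551153 to 110576213, was the member with the smallest p-value. It was counted 346, 296 and 252 times in WT and 509, 437 and 569 times in the libraries labelled cKO, which gave 7.69, 5.96 and 6.49 CPM against 12.1, 10.99 and 12.5 CPM. The lowest library labelled cKO was above the highest WT library, as for 25.3% of all tested genes. The mean rose from 6.71 ± 0.882 to 11.9 ± 0.793 CPM (SD, n = 3 each), a log2 fold change of 0.82 (standard error 0.12, 95% interval 0.56 to 1.08) and an adjusted p-value by edgeR of 3.38e-05. By level per kilobase it moved from above 43.0% to above 53.1% of the tested genes. *Myl3*, which overlaps it on the opposite strand, had 0 to 4 counts per library.

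**Figure D2:**
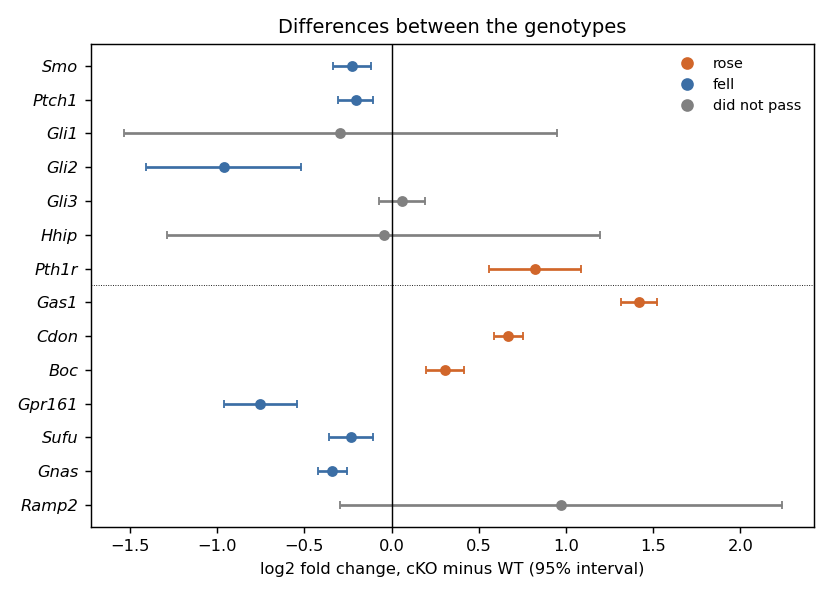
Log2 fold changes with 95% intervals from the edgeR fit for the 7 tested members, above the dotted line, and for 7 other genes of the pathways, below it. Orange marks genes that rose, blue genes that fell and grey genes that did not pass. The intervals of *Gli1*, *Hhip* and *Ramp2* are wide, while that of *Gli3* is narrow and spans 0.

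Sequence before the start site is shown for *Gli2*, *Smo* and *Pth1r*, members that passed the test and whose window begins outside annotated exons. RefSeq promoter windows, 250 bases before and 50 after a start, were matched by symbol for 8 of the 9 members, *Gli1* being the other, and their table of build GRCm38.p6 was placed on GRCm39 by exact match. The windows of *Ptch1*, *Gli3* and *Hhip* have an exon of some annotated gene at their first base, so no stretch of them is shown. Each sequence is given 5′ to 3′ on the strand of the gene, ends before the first base annotated as exon, and has its CpG dinucleotides in capitals. They are chr1:118981446-118981599 on the minus strand for *Gli2*, chr6:29735246-29735406 on the plus strand for *Smo*, and chr9:110576260-110576463 on the minus strand for *Pth1r*.
Gli2: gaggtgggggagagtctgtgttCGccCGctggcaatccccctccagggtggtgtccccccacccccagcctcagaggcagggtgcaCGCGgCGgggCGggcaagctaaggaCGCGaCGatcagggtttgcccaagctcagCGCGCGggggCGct
Smo: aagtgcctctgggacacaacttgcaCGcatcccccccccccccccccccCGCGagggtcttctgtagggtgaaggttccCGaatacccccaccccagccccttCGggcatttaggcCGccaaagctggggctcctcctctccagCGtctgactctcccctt
Pth1r: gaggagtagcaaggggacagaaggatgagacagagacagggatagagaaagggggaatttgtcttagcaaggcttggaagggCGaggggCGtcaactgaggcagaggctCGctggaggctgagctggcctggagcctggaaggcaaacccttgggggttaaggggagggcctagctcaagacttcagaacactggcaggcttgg
The *Gli2* and *Smo* stretches hold 13 and 7 CpG dinucleotides and the longer *Pth1r* stretch holds 3. Over the full 250 bases before the start, G and C made up 67.2% for *Gli2* and 68.4% for *Smo*, and 56% for this window of *Pth1r*, beside a median of 52.4% over all 32851 windows. *Pth1r* has 3 windows, and the other two, 3459 and 4535 bases further into the gene, held 65.6% and 70.4%. A count per gene does not say which start was used. The GLI motif GACCACCCA, searched on both strands, was in 0 of the 8 matched members' windows and in 0.253% of all windows. The cyclic AMP response motif TGACGTCA, which reads the same on both strands, was in the window of *Hhip* alone, beside 1.79% of all windows.

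Outside the members, 30 of 35 listed Hedgehog pathway genes were tested, of which 8 rose, 11 fell and 11 did not pass (63.3% passing beside 39.3% of all tested genes), with a median log2 fold change of -0.08 beside 0.01 over all tested genes. This list and those that follow were written by hand with earlier results of these data known. Their shares passing are descriptive and were not tested against the share of all genes. The 3 coreceptors that present Hedgehog ligands to PTCH1 rose together. *Gas1* was 202, 175 and 187 CPM in WT and 492, 499 and 518 CPM in the libraries labelled cKO, a log2 fold change of 1.42 (edgeR adjusted p-value 1.20e-13). *Cdon* rose from 205 ± 4.44 to 325.5 ± 4.79 CPM and *Boc* from 84.6 ± 5.64 to 104.5 ± 1.95 CPM (SD, n = 3 each), with log2 fold changes of 0.67 and 0.31. For all 3 every library labelled cKO was above every WT library, as for 25.3% of all tested genes. *Gas1* per kilobase, at 63.5 ± 4.62 and 169.9 ± 4.50, exceeded every member. *Gpr161*, which encodes a ciliary receptor that holds the pathway off, fell from 15.0 ± 0.162 to 8.89 ± 0.663 CPM, and *Sufu*, which encodes the protein that retains GLI factors, fell from 44.5 ± 2.75 to 37.8 ± 0.218 CPM (SD, n = 3 each), with log2 fold changes of -0.75 and -0.23. *Lrp2*, which encodes an endocytic receptor that binds Hedgehog ligands, had 91, 93 and 93 counts in WT and 11, 8 and 2 in the libraries labelled cKO. It fell (edgeR adjusted p-value 3.81e-06), and its fitted fold change depends on the prior count at such levels. *Arrb2*, which encodes a β-arrestin abundant in leukocytes, rose from 7.17 ± 1.27 to 49.8 ± 3.79 CPM (SD, n = 3 each), beside the macrophage markers given above.

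**Figure D3:**
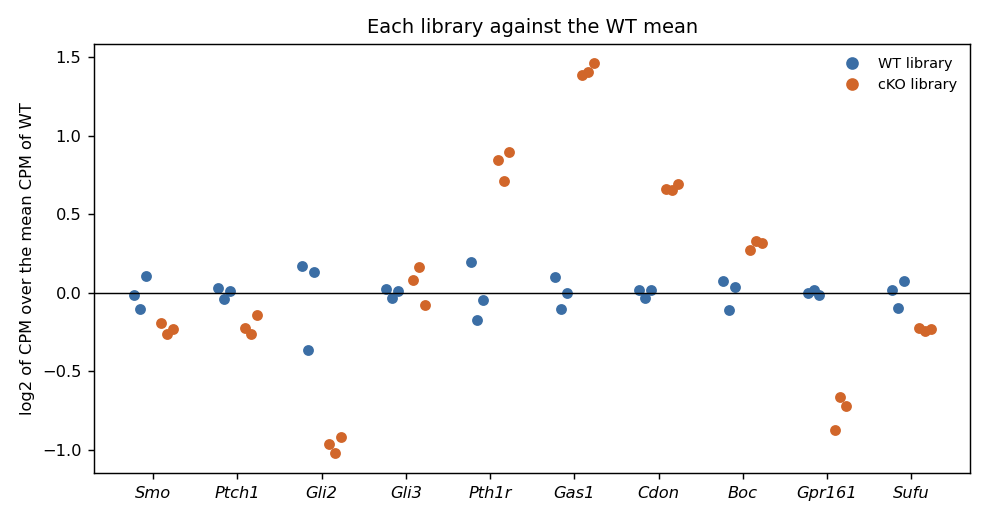
Each library's log2 ratio of CPM to the mean CPM of WT, for 5 members and 5 other Hedgehog genes, with WT in blue and the libraries labelled cKO in orange. The genotypes are separated for every gene shown except *Gli3*, upward for *Pth1r*, *Gas1*, *Cdon* and *Boc* and downward for *Smo*, *Ptch1*, *Gli2*, *Gpr161* and *Sufu*. Libraries of the genotypes did not overlap for 49.2% of all tested genes, and only chosen genes are drawn.

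Genes often given as targets of GLI factors did not move in a single direction. Of 19 tested of 21, 4 rose, 9 fell and 6 did not pass. The share passing was 68.4% beside 39.3% of all tested genes, and the median log2 fold change was -0.09. *Sfrp1*, which encodes a secreted Wnt antagonist, fell from 195 ± 2.77 to 58.1 ± 2.51 CPM, a log2 fold change of -1.75. The cyclin genes *Ccnd2* and *Ccnd1* fell from 843 ± 14.2 to 525 ± 6.92 CPM and from 307 ± 3.18 to 216 ± 11.6 CPM (SD, n = 3 each). The genes that rose included *Pax9* and *Nkx3-2*, transcription factors of the Hedgehog-responsive embryonic sclerotome, by 1.05 and 1.20 on the log2 scale, and *Igfbp6*, an insulin-like growth factor binding protein, by 0.39. *Nkx3-2* was counted 59, 136 and 61 times in WT and 185, 170 and 198 times in the libraries labelled cKO, so its second WT library was nearest to the other genotype.

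On the PTHrP side, 42 of 45 listed genes of PTH receptor signaling were tested, and 17 rose, 8 fell and 17 did not pass. The share passing was 59.5% beside 39.3% of all tested genes, and the median log2 fold change was 0.07. *Gnas* was measured at 1104, 1049 and 1161 CPM in WT and at 869.7, 893 and 855 CPM in the libraries labelled cKO, a log2 fold change of -0.34 (edgeR adjusted p-value 1.38e-06). It thus fell where its receptor gene *Pth1r* rose. *Adcy5*, an adenylyl cyclase gene, fell from 6.33 ± 0.0584 to 1.95 ± 0.596 CPM, and *Gna13*, another G protein gene, from 238 ± 20.4 to 178 ± 1.42 CPM (SD, n = 3 each). *Slc9a3r1*, which encodes the scaffold NHERF1 that binds PTH1R, rose from 21.95 ± 1.96 to 49.2 ± 2.95 CPM. *Grk2*, which encodes a kinase that desensitises such receptors, rose from 77.1 ± 2.60 to 115 ± 1.20 CPM (SD, n = 3 each), and *Arrb2*, described above, is also in this list. *Ramp2*, which encodes a partner protein of PTH1R, had 11, 4 and 10 counts against 21, 12 and 15, with a log2 fold change of 0.97, a 95% interval of -0.29 to 2.24 and an adjusted p-value of 0.225 in edgeR's test.

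Of 23 genes known to respond to parathyroid hormone in bone cells, 19 were tested, of which 10 rose, 5 fell and 4 did not pass. The share passing was 78.9% beside 39.3% of all tested genes, and the median log2 fold change was 0.27. *Nr4a2*, an immediate early nuclear receptor gene, was 63.4, 72.2 and 81.8 CPM in WT and 142, 128 and 140.5 CPM in the libraries labelled cKO, a log2 fold change of 0.92. *Mmp13*, the collagenase gene, rose from 879 ± 30.1 to 2938 ± 119.8 CPM and *Fos* from 13.1 ± 0.0523 to 64.1 ± 1.77 CPM (SD, n = 3 each). *Il6* rose as well, by 1.24 on the log2 scale. *Tnfrsf11b*, which encodes the RANKL decoy osteoprotegerin, fell from 483 ± 24.4 to 274 ± 5.47 CPM, *Ptgs2* from 1350 ± 81.9 to 871 ± 78.5 CPM, and *Gja1*, the connexin 43 gene, from 822 ± 8.88 to 593 ± 10.6 CPM (SD, n = 3 each). *Sost*, which parathyroid hormone represses in osteocytes, was at 0 counts throughout. The list was not split by the direction in which the hormone moves each gene, so its counts and median do not measure a response to the hormone. Some listed genes, *Il6*, *Fos* and *Ptgs2* among them, also respond to LPS, which every culture received. *Pth* was at 0 and *Pthlh* at 13 counts or fewer in these libraries, which do not measure hormone in the medium. What lay behind the changes of this list was not tested.

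**Figure D4:**
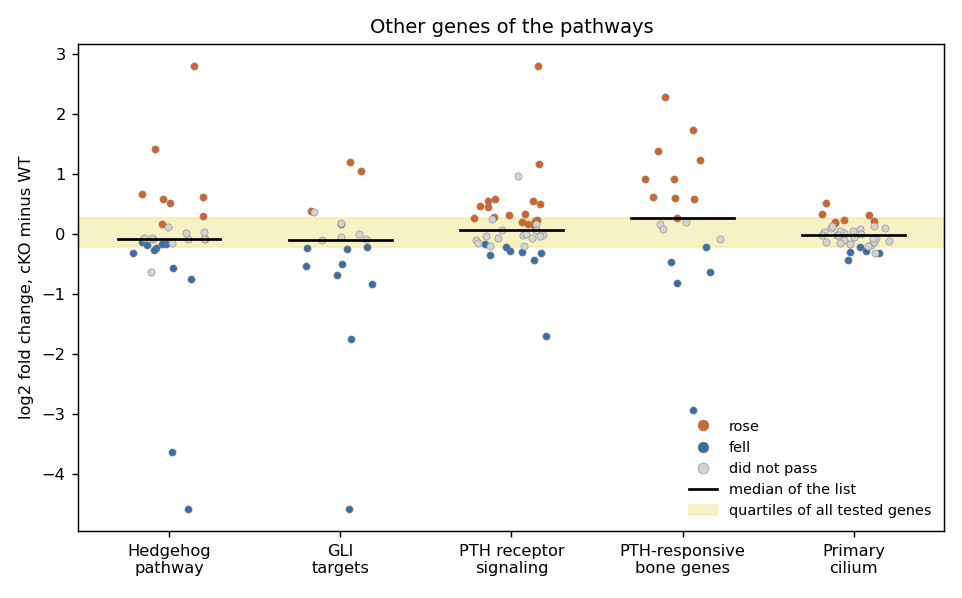
Log2 fold changes of the tested genes of 5 lists outside the members, each point a gene, with orange for genes that rose, blue for genes that fell and grey for genes that did not pass. Black lines are the medians of the lists and the yellow band spans the quartiles of all tested genes, -0.22 to 0.27. The cilium genes lie mostly within the band, and the PTH-responsive genes have the highest median, 0.27.

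All 38 listed genes of the primary cilium, the organelle in which SMO acts, were tested, and 7 rose, 5 fell and 26 did not pass, 31.6% passing beside 39.3% of all genes. Changes were small, with quartiles of -0.14 and 0.10 on the log2 scale. *Kif3a* and *Kif3b*, which encode motor subunits of transport into the cilium, rose by 0.35 and 0.21, whereas *Kifap3*, which encodes their partner, changed by -0.22. *Cc2d2a* rose by 0.53, and *Ift46* and *Rpgrip1l* changed by -0.43 and -0.31. The number that rose was 3 without WT replicate 1 or cKO replicate 1 and 4 without WT replicate 2, cKO replicate 2 or cKO replicate 3, and the number that fell was 3 without WT replicate 2, cKO replicate 1 or cKO replicate 2.

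Among the 142 tested genes of these lists, the profile over the 6 libraries nearest to each member's was found. The measure was the root mean square difference of log2 CPM, with 0.5 CPM added and each profile centred on its mean. *Smo* lay nearest to *Sufu* (0.0237) and *Ptch1* to *Rab34* (0.0348), both of which fell by about as much as the member, with log2 fold changes of -0.23 and -0.24. *Gli3* lay nearest to *Snai1* (0.0454), and *Hhip* and *Gli1* to the cilium genes *Bbs2* (0.0769) and *Bbs4* (0.121). Because *Hhip* and *Gli1* were below 0.5 CPM in every library, the added 0.5 CPM flattens their profiles, and no likeness is read from these matches. *Pth1r* lay nearest to *Cdon* (0.114) and *Gli2* to *Ccnd2* (0.158), with log2 fold changes of 0.67 and -0.68. The libraries are few, and genes that differ by a like amount between the genotypes lie near each other by construction.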

How the data were processed

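The deposited values are raw counts per gene, with gene lengths in bases. The authors had made them by read trimming, alignment to mm39 in HISAT2 (2.0.5 per the labels) and counting in featureCounts, without normalization, from paired-end reads of 150 bases. The release of featureCounts differs between the labels and the methods, and the strand setting is not given in the sources used here. Each column of counts matched a library by its name in the labels.

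Genes were kept by filterByExpr, scaled by TMM and tested with edgeR 4.0.16 (glmQLFit, glmQLFTest; R 4.3.3) with genotype as the only term, with Benjamini-Hochberg adjustment over 17146 genes. CPM used TMM-scaled totals of these genes, and CPM per kilobase the deposited gene length. Small counts were mostly even (63.4% to 65.7% of counts from 1 to 10), as when both mates are counted, so few counts may be fewer fragments. Replicates differed by more than sampling noise (chi-square per gene 4.82 to 13.9).

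Members and lists were chosen with earlier results of these data known. Named were all 9 members, *Gsdmd*, up to 3 higher and 3 lower passing genes per list by p-value, and fixed core genes and markers, of which 1 is not reported here. The alternatives were DESeq2 1.42.0, limma-voom 3.58.1, scalings, filters, halved counts, a fold limit, a replicate block and each library left out. The procedure was tested on simulated data. Sequences are from RefSeq, and exons from GENCODE M39.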

Additional observations from a re-analysis of the deposited data

How the results depend on the processing

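The 4 members that passed kept their direction and stayed past the threshold under DESeq2, limma-voom, RLE factors, library totals only, both other filters and halved counts, and with each library left out. Log2 fold changes with a library left out ranged from 0.73 to 0.92 for *Pth1r*, -1.13 to -0.89 for *Gli2*, -0.24 to -0.18 for *Ptch1* and -0.29 to -0.17 for *Smo*, with 1 member higher and 3 lower each time. They ranged from -0.60 to 0.11 for *Gli1*, from 0.0024 to 0.13 for *Gli3* and from -0.30 to 0.21 for *Hhip*. *Gli1* changed sign without WT replicate 1 (0.11) and *Hhip* without WT replicate 1 (0.033), WT replicate 2 (0.15) or cKO replicate 2 (0.21). Neither passed under any setting. With at least 1 count as the only filter, *Ihh* and *Pthlh* could be tested and had adjusted p-values of 0.0992 and 0.630 in edgeR.

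With a fold limit of 1 on the log2 scale, *Pth1r* (0.82), *Gli2* (-0.96), *Ptch1* (-0.21) and *Smo* (-0.23) no longer passed, so 0 members were higher and 0 lower by edgeR, DESeq2 or limma-voom, where 4 had an unadjusted p-value under 0.05 in each. Under that limit 1124 genes were higher and 796 lower, 11.2% of those tested, 2 and 2 Hedgehog genes, 2 and 2 GLI targets, 2 and 1 PTH receptor signaling genes, 4 and 1 PTH-responsive genes, and 0 and 0 cilium genes, 13 or 14 of which had an unadjusted p-value under 0.05 by these tools. With a library left out, 2942 to 3407 genes were higher and 2796 to 3375 lower, and 3 to 6 cilium genes were higher and 3 to 5 lower. Across scalings the median log2 fold change of all genes stayed between -0.00287 and 0.0293.

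Deviations of same-numbered libraries correlated at -0.0136 to 0.00116 and those of differently numbered libraries at -0.0148 to 0.0152. No pairing by replicate number was thus seen, and a batch shared in another way was not tested. With the replicate number as a block, 3298 genes were higher and 3098 lower, the 4 members still passed, with *Gli2* at -0.95 and *Pth1r* at 0.83, and no call of a member changed. Depth limits *Gli1*, *Hhip*, *Ihh* and *Pthlh*, whose counts were 22 or fewer per library.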
